A study of Mus musculus with 7 samples.

Results

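Chromatin accessibility was examined at the genes of 5 chemokines that T cells make, Ccl3, Ccl4, Ccl5, Xcl1 and Ccl1. All regions of the deposited ATAC-seq table that overlapped the gene body or the 10 kb on each side of it were taken, and a region near 2 of the genes was counted for the nearer one. This gave 31 of the 113820 regions in the table, of which 5 lay at Ccl3, 2 at Ccl4, 6 at Ccl5, 2 at Xcl1 and 16 at Ccl1. In ATAC-seq a transposase places adapters into open chromatin, so a region with more insertions is more accessible. Values are given as log2 density, the log2 of normalized insertions per kilobase, or as a locus sum, the normalized insertions added over all regions of a gene on a linear scale.

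All cells came from C57BL/6 mice infected subcutaneously with 500 L3 larvae of the worm Nippostrongylus brasiliensis and killed on day 8, and each library was made from 50000 sorted CD4+ T cells. IL-4+ cells were GFP+ cells of IL-4 4get reporter mice from the mediastinal lymph node, called LN cells here and LN IL-4+ in the plots (n = 2), and from the lung, called lung IL-4+ cells (n = 3). IFNγ+ cells were YFP+ cells of IFN-gamma Great reporter mice from the lung, called lung IFNγ+ cells (n = 2). The age of the mice is not given in the sources used here. The sort took CD3ε+ CD4+ cells and left out cells with CD8, B220, CD11b, CD11c, NK1.1 or Ter119. Since the lung populations came from different reporter strains, strain and cytokine cannot be told apart between them. Lungs were digested with enzymes and lymph nodes were not, so tissue and handling cannot be told apart either. Reporter-negative cells and uninfected mice were not analysed here.

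Chemokines are small secreted proteins that direct the migration of leukocytes through G protein-coupled receptors. Ccl3, Ccl4 and Ccl5 are inflammatory chemokines that are released by activated type 1 effector and cytotoxic lymphocytes, and draw in monocytes and further effector T cells. Xcl1, or lymphotactin, is made by activated T and NK cells and binds Xcr1 on cross-presenting dendritic cells, while Ccl1 is a product of activated T cells that binds Ccr8, a receptor of Th2 cells and regulatory T cells.

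The regions that carried the clearest differences are shown first, so that the values can be read beside their sequence. They are the central 300 bases of each region over 1 kb from a gene's start that passed the threshold in 2 comparisons. The promoters follow where the RefSeq table held one, which was the case for 3 of the 5 genes (Ccl3, Xcl1 and Ccl1), each given as the 250 bases before the start. All coordinates are on GRCm38 (mm10), with sequences from GRCm38.p6. Capitals mark a match to one of 7 short motifs searched on both strands. Runx was searched as TGTGGTT, T-box factors as AGGTGTGA and the factor family of Gata3 as AGATAA. The letters were TGANTCA for bZIP factors, TGGAAAA for NFAT and TTCNNNGAA for STAT factors. For NF-kB a simplified pattern was searched that differs from the usual consensus and can miss sites that the consensus would find. The NF-kB counts below hold for that pattern only. Matches of different motifs did not overlap in these sequences.
Ccl3 downstream region, chr11:83640219-83640518, plus strand: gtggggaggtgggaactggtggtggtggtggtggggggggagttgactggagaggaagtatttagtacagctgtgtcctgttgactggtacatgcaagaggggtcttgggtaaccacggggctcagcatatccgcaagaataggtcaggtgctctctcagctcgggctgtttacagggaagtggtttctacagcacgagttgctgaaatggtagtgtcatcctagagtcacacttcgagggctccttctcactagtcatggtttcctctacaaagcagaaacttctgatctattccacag
Ccl5 upstream region, chr11:83536729-83537028, plus strand: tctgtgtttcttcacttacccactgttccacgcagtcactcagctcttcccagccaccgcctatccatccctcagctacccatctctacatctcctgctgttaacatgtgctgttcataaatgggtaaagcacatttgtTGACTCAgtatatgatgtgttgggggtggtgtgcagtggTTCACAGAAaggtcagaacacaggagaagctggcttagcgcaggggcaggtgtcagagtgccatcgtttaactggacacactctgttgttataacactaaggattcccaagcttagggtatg
Ccl1 upstream region nearer the start, chr11:82203597-82203896, plus strand: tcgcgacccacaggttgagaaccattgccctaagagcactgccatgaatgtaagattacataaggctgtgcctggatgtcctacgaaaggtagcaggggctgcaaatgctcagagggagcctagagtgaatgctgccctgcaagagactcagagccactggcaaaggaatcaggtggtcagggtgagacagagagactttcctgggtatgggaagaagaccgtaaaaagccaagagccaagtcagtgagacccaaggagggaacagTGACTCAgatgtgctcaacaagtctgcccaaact
Ccl1 upstream region farther from the start, chr11:82214440-82214739, plus strand: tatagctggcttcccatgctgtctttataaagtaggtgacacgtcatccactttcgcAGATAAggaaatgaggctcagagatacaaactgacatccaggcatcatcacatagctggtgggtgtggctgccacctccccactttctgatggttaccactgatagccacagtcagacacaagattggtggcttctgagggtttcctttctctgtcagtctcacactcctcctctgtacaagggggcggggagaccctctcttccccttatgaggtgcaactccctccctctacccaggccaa
Ccl3 promoter, chr11:83649379-83649628, minus strand: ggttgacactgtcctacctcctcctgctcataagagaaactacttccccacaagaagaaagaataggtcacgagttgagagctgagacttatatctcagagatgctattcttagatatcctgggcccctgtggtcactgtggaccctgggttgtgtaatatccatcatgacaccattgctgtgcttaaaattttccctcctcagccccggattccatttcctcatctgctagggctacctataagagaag
Xcl1 promoter, chr1:164935523-164935772, minus strand: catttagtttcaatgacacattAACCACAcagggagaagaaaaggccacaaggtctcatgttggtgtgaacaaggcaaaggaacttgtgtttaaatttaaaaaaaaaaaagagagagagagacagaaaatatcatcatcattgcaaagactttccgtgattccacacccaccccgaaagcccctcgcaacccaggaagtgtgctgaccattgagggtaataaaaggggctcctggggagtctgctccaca
Ccl1 promoter, chr11:82179813-82180062, minus strand: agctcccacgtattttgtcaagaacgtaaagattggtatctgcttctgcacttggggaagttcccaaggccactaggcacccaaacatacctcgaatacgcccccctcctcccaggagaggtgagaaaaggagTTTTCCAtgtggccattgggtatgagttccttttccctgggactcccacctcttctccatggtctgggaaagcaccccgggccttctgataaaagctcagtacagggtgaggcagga

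A match in such a window is a description of its letters only. The Ccl5 upstream region held a bZIP and a STAT match, the Ccl1 upstream regions a bZIP and a GATA match, the Xcl1 promoter a Runx match, the Ccl1 promoter an NFAT match, and the Ccl3 downstream region and the Ccl3 promoter none of the 7 motifs. Across the central 300 bases of all 31 regions, the bZIP letters stood in 8, compared with 13.0% of all 113820 regions and 7.81% of 32851 RefSeq promoters of the same length. The T-box letters stood in 2 of the 31, which were both Ccl4 regions, and in 1.68% of all regions and 1.28% of promoters. Runx letters stood in 4 (11.04% of all regions and 5.27% of promoters), NFAT in 3 (7.16% and 6.73%), STAT in 4 (9.31% and 8.30%), GATA in 1 (15.2% and 11.2%) and NF-kB in 1 (5.06% and 4.79%). The single match to the NF-kB pattern searched here was in the Ccl5 promoter region.

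The libraries held between 14005923 and 91681969 insertions, rebuilt from tied values as lower bounds, and the 31 regions held between 1 and 5546 insertions per library. By population the totals were 53657354 and 91681969 in lung IFNγ+, 39068158, 22688448 and 14005923 in lung IL-4+, and 23564412 and 63937033 in LN libraries. Depth and population are thus partly mixed. The loci of the reporter cytokines moved with the labels, since the mean Ifng locus sum was 71.6 in lung IFNγ+ cells, 22.6 in lung IL-4+ cells and 14.6 in LN cells, and the Il4 locus sum was 47.0, 149 and 120.4. The 7 CD4 T cell markers had a promoter at an accessible density of at least 5 in every population. Libraries fell into a class with a narrow spread of insertions between regions (LN replicate 1 with lung IL-4+ replicates 2 and 3) and a class with a wide spread (LN replicate 2 with lung IL-4+ replicate 1 and all lung IFNγ+ libraries), so each locus is also given within the wide class. In these bulk samples, fewer cells with an open locus and less opening per cell cannot be told apart. The replicates were mice of a single experiment, which the labels only number, so the p-values measure the spread between libraries within that experiment. Whether LN and lung IL-4+ libraries came from the same mice is not stated, and they were compared as unpaired.

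Each of the 5 genes had at least 1 region in which lung IFNγ+ cells exceeded LN cells past the threshold (limma adjusted p below 0.05 and at least 3-fold, passed by 2.17% of all regions), and Ccl1 was open in lung cells of both kinds. The count of such regions was 14, and it was 0 without lung IFNγ+ replicate 1 and 1 without replicate 2. With an accessible region defined as a mean density of at least 5, LN cells had 5 accessible regions of the 31, all at Ccl1. Lung IL-4+ cells had 14, of which 12 were at Ccl1, 1 at Ccl5 and 1 at Xcl1. Lung IFNγ+ cells had 22, which were 4 at Ccl3, 2 at Ccl4, 4 at Ccl5, 2 at Xcl1 and 10 at Ccl1. Over all regions, the accessible share was about the same in the 3 populations, at 43.7%, 43.6% and 42.9%. The authors merged the regions from peak summits called in single replicates, so a region can be in the table through a single population alone. Which libraries gave the summit of a region is not known here. Counts of accessible, called or not overlapping regions at a gene can therefore depend in part on how its regions entered the table.

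**Figure D1:**
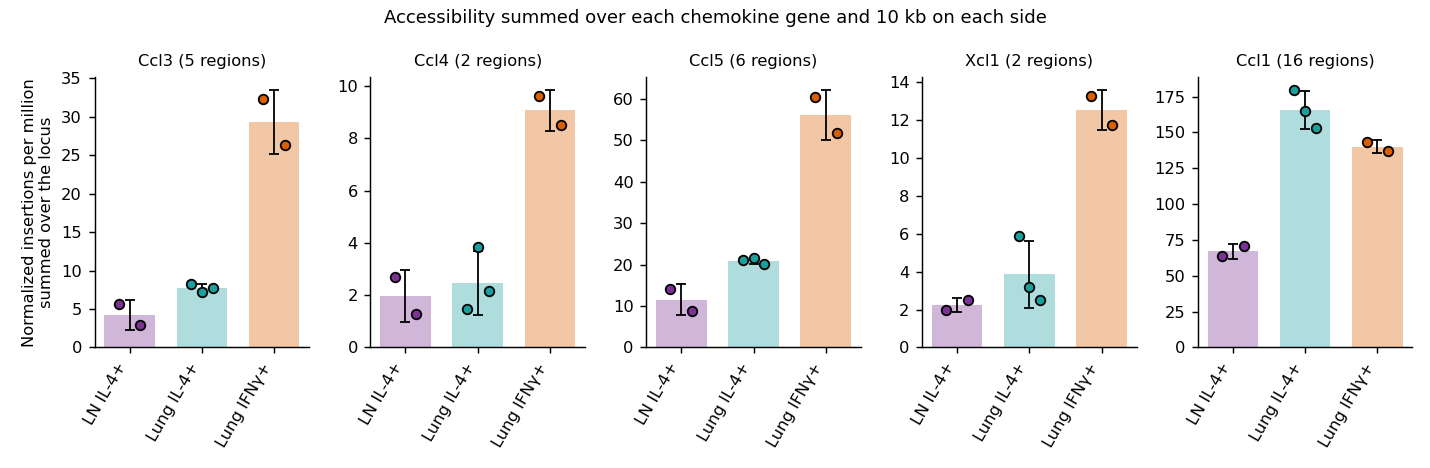
Locus sum (normalized insertions over all regions of a gene) at the 5 chemokine genes, with 1 point per library and the mean of each population (LN cells n = 2, IL-4+ cells of the lung n = 3, IFNγ+ cells of the lung n = 2). At Ccl3, Ccl4, Ccl5 and Xcl1 both lung IFNγ+ libraries lie above every other library, while at Ccl1 all lung libraries lie above both LN libraries.

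**Figure D2:**
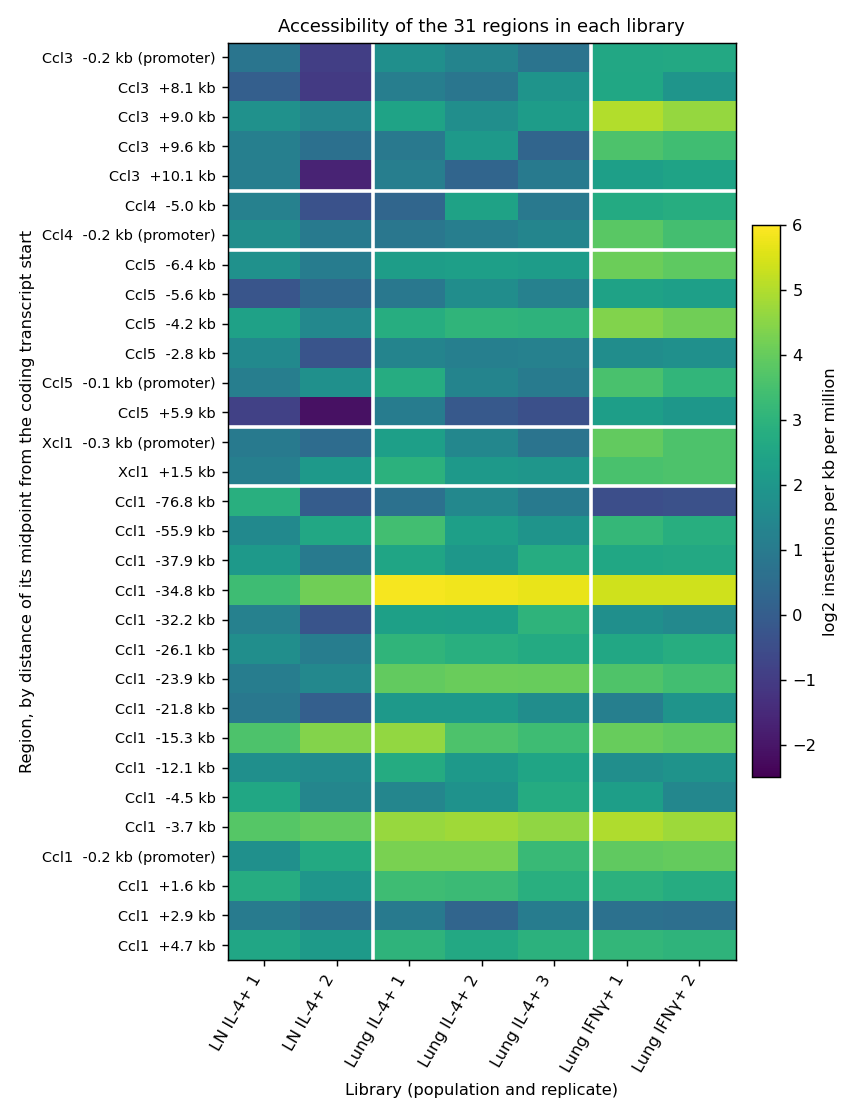
Log2 density (normalized insertions per kb, color) of each of the 31 regions (rows, grouped by gene) in each of the 7 libraries (columns). The rows of Ccl3, Ccl4, Ccl5 and Xcl1 are brightest in the lung IFNγ+ columns, and the row 34.778 kb upstream of Ccl1 is the brightest in all lung columns.

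Ccl3, known as MIP-1 alpha, lies at chr11:83647844-83649355 on the minus strand (ENSMUSG00000000982.5). Its locus sum was 5.63 and 2.86 in the LN libraries, 8.22, 7.21 and 7.70 in the lung IL-4+ libraries, and 32.2 and 26.3 in the lung IFNγ+ libraries. The populations did not overlap, and the order was LN (4.24 ± 1.96, SD, n = 2), lung IL-4+ (7.71 ± 0.506, SD, n = 3) and lung IFNγ+ (29.3 ± 4.19, SD, n = 2). The step from lung IL-4+ to lung IFNγ+ cells was 3.78-fold (exact two-sided permutation p = 0.1, which is the lowest possible for 3 against 2 libraries). The step from LN to lung IL-4+ cells was 1.92-fold (exact two-sided permutation p = 0.1), a log2 difference of 0.94 that was 1.43 without LN replicate 1 and 0.45 without LN replicate 2. Within the wide class the libraries kept this order, at 2.86 for the LN, 8.22 for lung IL-4+ and 32.2 and 26.3 for lung IFNγ+ cells.

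Of the 5 Ccl3 regions, 4 formed a cluster on the side toward Ccl5, centered 8.125 to 10.131 kb downstream of the Ccl3 start and outside any annotated gene. The most accessible of them in lung IFNγ+ cells, chr11:83640131-83640606, whose central bases are printed above, had a log2 density of 1.81 and 1.37 in LN, 2.42, 1.70 and 2.21 in lung IL-4+, and 5.01 and 4.65 in lung IFNγ+ libraries. Lung IFNγ+ libraries were far above all others, and the other populations overlapped. The difference between lung IL-4+ and lung IFNγ+ cells was -2.72 ± 0.32 (SE) on the log2 scale, or 6.59-fold (limma adjusted p = 0.0138). Compared with LN cells, lung IFNγ+ cells were 9.44-fold higher (limma adjusted p = 0.0021). Its neighbor chr11:83639529-83640029 had log2 densities of 1.18 and 0.63, of 0.94, 2.09 and 0.27, and of 3.64 and 3.40 in the same order of populations. That region passed the threshold against LN cells (6.13-fold, limma adjusted p = 0.0354) and missed it against lung IL-4+ cells (5.35-fold, adjusted p = 0.0815). Region chr11:83640815-83641645 had 0.08 and -1.06, then 1.12, 0.85 and 1.88, then 2.57 and 1.93, and was 6.69-fold higher in lung IFNγ+ than in LN cells (limma adjusted p = 0.0425). That call rested on 44 and 12 insertions in the LN libraries against 237 and 240. The fourth, chr11:83639024-83639424, was called in no comparison.

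The Ccl3 promoter region, chr11:83649207-83649814, covers the start and the adjoining 5′ UTR and coding exon. Its log2 density was 0.81 and -0.91 in LN, 1.74, 1.35 and 0.78 in lung IL-4+, and 2.60 and 2.62 in lung IFNγ+ libraries. Lung IFNγ+ libraries did not overlap with the others, whereas LN and lung IL-4+ libraries did. The change against LN cells was 2.66 ± 0.65 (SE; limma adjusted p = 0.0484), and that between the lung populations was not called (-1.32, limma adjusted p = 0.336). This promoter region held 50 and 9 insertions in the LN libraries against 165 and 296 in the lung IFNγ+ libraries. Even in lung IFNγ+ cells, 39.3% of all 22943 promoter regions had a lower density than this one, against 6.08% in lung IL-4+ and 0.283% in LN cells.

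Ccl4, known as MIP-1 beta and an attractant of monocytes and T cells, lies at chr11:83662584-83664683 on the plus strand (ENSMUSG00000018930.3). Its locus sum was 2.68 and 1.26 in LN libraries, 1.45, 3.82 and 2.14 in lung IL-4+ libraries, and 9.62 and 8.51 in lung IFNγ+ libraries. Lung IFNγ+ cells were 3.96-fold above lung IL-4+ cells with no overlap (exact two-sided permutation p = 0.1). LN (1.97 ± 1.00, SD, n = 2) and lung IL-4+ cells (2.47 ± 1.22, SD, n = 3) overlapped and did not differ beyond their spread (exact two-sided permutation p = 0.7). In the wide class the sums were 1.26 in the LN, 1.45 in lung IL-4+ and 9.62 and 8.51 in lung IFNγ+ libraries.

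The Ccl4 promoter region, chr11:83662174-83662600, overlaps the start and the 5′ UTR. It had a log2 density of 1.69 and 0.97 in LN, 0.86, 1.13 and 1.36 in lung IL-4+, and 3.84 and 3.46 in lung IFNγ+ libraries. This was the only promoter of the 5 genes called between the lung populations (-2.53 ± 0.40, SE; 5.78-fold; limma adjusted p = 0.0273), and it was also called between lung IFNγ+ and LN cells (4.99-fold, limma adjusted p = 0.0169). No difference was detected between the IL-4+ populations, with a 95% interval of -1.10 to 0.67. Among all promoter regions, 57.6% had a lower density than that of Ccl4 in lung IFNγ+ cells, and 3.81% and 6.02% did in lung IL-4+ and LN cells. The other region of the locus, chr11:83657321-83657867, lies between Ccl3 and Ccl4, within 10 kb of both, and was called in no comparison.

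Ccl5, or RANTES, which binds Ccr1 and Ccr3 among others, lies at chr11:83525778-83530518 on the minus strand (ENSMUSG00000035042.2). Its locus sum was 14.1 and 8.83 in LN, 21.1, 21.5 and 20.0 in lung IL-4+, and 60.3 and 51.8 in lung IFNγ+ libraries. None of the populations overlapped, and the order from low to high was LN (11.5 ± 3.76, SD, n = 2), lung IL-4+ (20.9 ± 0.758, SD, n = 3) and lung IFNγ+ (56.0 ± 6.06, SD, n = 2). The lung populations differed 2.68-fold and the IL-4+ populations 1.87-fold (exact two-sided permutation p = 0.1 for each). The latter, 0.90 on the log2 scale, was 0.56 without LN replicate 2 and 0.26 with 1 kb in place of 10 kb on each side of the gene, while with 25 kb the difference between the lung populations moved from -1.42 to -0.87. The wide class gave 8.83, 21.1 and then 60.3 and 51.8.

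Most of the Ccl5 signal lay upstream of the gene, outside any annotated gene. Region chr11:83533959-83535451, centered 4.187 kb upstream, had log2 densities of 2.37 and 1.46 in LN, 2.80, 3.07 and 3.01 in lung IL-4+, and 4.39 and 4.17 in lung IFNγ+ libraries, and was 5.16-fold higher in lung IFNγ+ than in LN cells (limma adjusted p = 0.0054). Region chr11:83536346-83537412, centered 6.361 kb upstream and printed above in part, had 1.79 and 1.07, then 2.23, 2.31 and 2.21, then 4.10 and 3.91. In both regions the 3 populations stood in the same order with no overlap. The farther region was called between the lung populations (-1.75 ± 0.32, SE; 3.37-fold; limma adjusted p = 0.0436) and against LN cells (5.95-fold, limma adjusted p = 0.0044). The short region next to it, chr11:83535874-83536274, had -0.25 and 0.41, then 0.89, 1.65 and 1.22, then 2.41 and 2.29, a 4.83-fold rise from LN to lung IFNγ+ cells (limma adjusted p = 0.0443). It held 23 and 18 insertions in the LN libraries against 84 and 131. Downstream, chr11:83524370-83524770 had -0.85 and -2.1, then 1.06, -0.14 and -0.44, then 2.27 and 2.00. This was the widest fold among the 31 regions, 12.3-fold between lung IFNγ+ and LN cells (limma adjusted p = 0.0429), and rested on 17 and 1 insertions in the LN libraries against 74 and 102.

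The Ccl5 promoter region, chr11:83530359-83530809, which covers the start, the 5′ UTR and coding sequence, was called in no comparison. Its log2 density was 1.15 and 1.77 in LN, 2.76, 1.35 and 1.05 in lung IL-4+, and 3.55 and 3.10 in lung IFNγ+ libraries. Lung IFNγ+ libraries lay above the rest, but lung IL-4+ replicate 1 was much closer to them than its replicates were. The difference between the lung populations was -1.60 ± 0.51 (SE; limma adjusted p = 0.208), and that between lung IFNγ+ and LN cells was 1.87 ± 0.56 (SE; limma adjusted p = 0.0991). The promoter stood above 52.3% of all promoter regions in lung IFNγ+ cells, 17.3% in lung IL-4+ cells and 7.57% in LN cells.

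**Figure D3:**
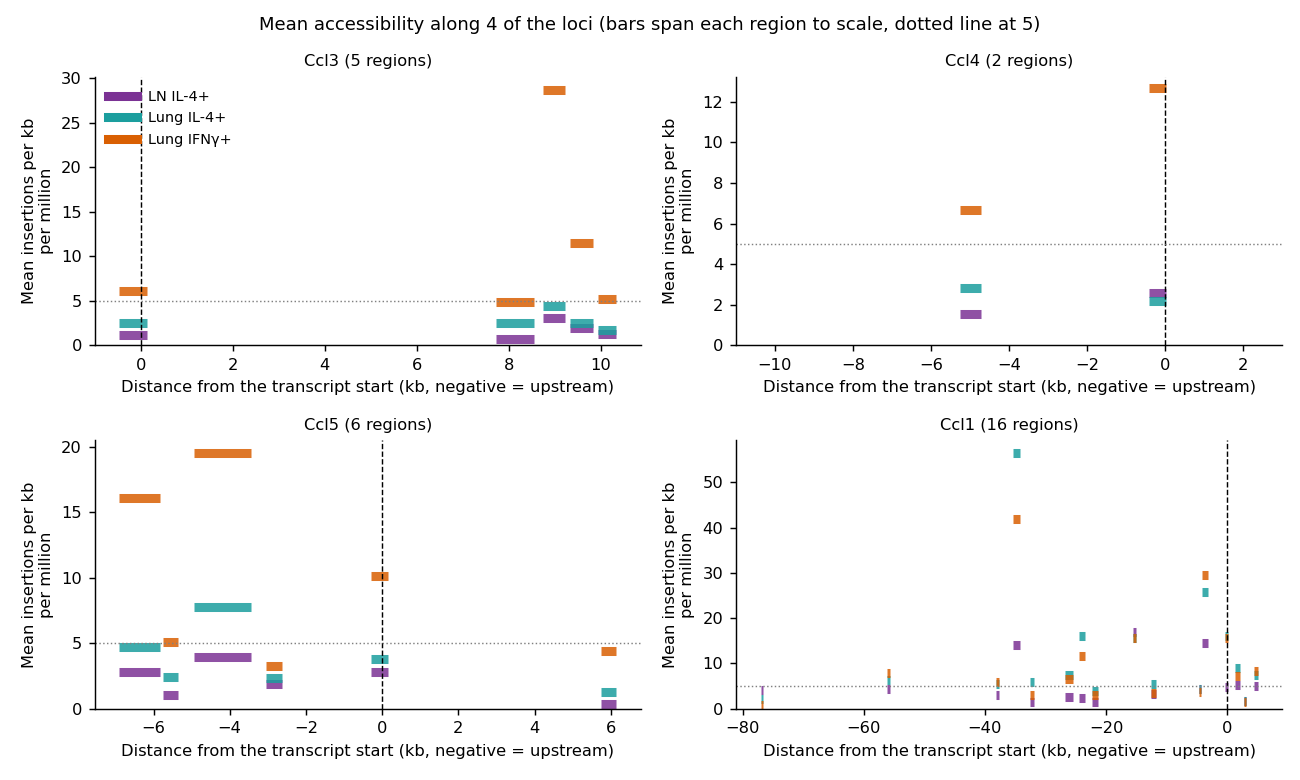
Mean density (normalized insertions per kb) of the regions at Ccl3, Ccl4, Ccl5 and Ccl1 against the distance in kb from the start of the coding transcript, with negative distances upstream, for the 3 populations. Lung IFNγ+ bars are the tallest at Ccl3, Ccl4 and Ccl5, some bars of Ccl1 hide each other, and its tallest bars stand 34.778 kb upstream in both lung populations.

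Xcl1 lies at chr1:164931644-164935527 on the minus strand (ENSMUSG00000026573.7). Its locus sum was 1.97 and 2.52 in LN, 5.87, 3.21 and 2.53 in lung IL-4+, and 13.3 and 11.8 in lung IFNγ+ libraries. Both lung IFNγ+ libraries were above all others, 3.45-fold over lung IL-4+ cells (exact two-sided permutation p = 0.1). LN (2.25 ± 0.386, SD, n = 2) and lung IL-4+ libraries (3.87 ± 1.76, SD, n = 3) nearly met, and their 1.63-fold difference (exact two-sided permutation p = 0.2) was carried mainly by lung IL-4+ replicate 1 (log2 difference 0.70, and 0.35 without it). With 25 kb on each side of the gene, the log2 difference between the lung populations moved from -1.79 to -0.78, and that between lung IFNγ+ and LN cells from 2.49 to 0.85. The wide class gave 2.52 in the LN, 5.87 in lung IL-4+ and 13.3 and 11.8 in lung IFNγ+ cells.

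The region nearest the Xcl1 start, chr1:164935591-164936139, lies upstream and begins 64 bp from it. Its log2 density was 0.96 and 0.50 in LN, 2.29, 1.45 and 0.77 in lung IL-4+, and 3.95 and 3.62 in lung IFNγ+ libraries, so lung IFNγ+ cells stood apart and the IL-4+ populations overlapped. It was 8.31-fold higher in lung IFNγ+ than in LN cells (limma adjusted p = 0.0110). Between the lung populations the 4.86-fold difference missed the threshold (limma adjusted p = 0.0665) and passed it under 6 of 16 alternatives. The region in an intron of the gene, chr1:164933802-164934207, had 1.16 and 2.1, then 2.97, 2.07 and 1.98, then 3.57 and 3.63, and rose 3.92-fold from LN to lung IFNγ+ cells (limma adjusted p = 0.0359). Both regions overlap an exon of Gm20743, a transcript on the opposite strand, and accessibility has no strand.

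Ccl1 behaved differently. The annotated gene spans chr11:82176657-82305690 on the minus strand (ENSMUSG00000020702.13), 129034 bp in all, because of 1 long non-coding transcript, while its coding transcripts end at 82179812. Of the 16 regions, 13 were upstream of the coding start, most of them in introns of the long transcript. The locus sum was 63.5 and 70.9 in LN, 179.6, 165 and 152.8 in lung IL-4+, and 143.1 and 136.9 in lung IFNγ+ libraries. Lung IL-4+ (165.8 ± 13.4, SD, n = 3) and lung IFNγ+ cells (140.01 ± 4.37, SD, n = 2) were both well above LN cells (67.2 ± 5.21, SD, n = 2). The rise in the lung was 2.47-fold for IL-4+ cells (exact two-sided permutation p = 0.1) and 2.09-fold for IFNγ+ cells (exact two-sided permutation p = 0.333, the lowest possible for 2 against 2 libraries). The lung populations differed by 1.18-fold (exact two-sided permutation p = 0.2). The wide class gave 70.9 in the LN, 179.6 in lung IL-4+ and 143.1 and 136.9 in lung IFNγ+ cells.

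The most accessible of the 31 regions in both lung populations was chr11:82213994-82215186, 34.778 kb upstream of the coding start of Ccl1. In LN cells its mean density of 14.2 was below those of chr11:82194864-82195382 (17.1) and chr11:82183063-82183911 (14.5). Its log2 density was 3.37 and 4.17 in LN, 5.89, 5.83 and 5.73 in lung IL-4+, and 5.38 and 5.40 in lung IFNγ+ libraries. All lung libraries were above the LN libraries, by 4.13-fold for IL-4+ (limma adjusted p = 0.0032) and 3.07-fold for IFNγ+ cells (limma adjusted p = 0.0066). Region chr11:82203223-82204271, 23.935 kb upstream, was at 1.11 and 1.47 in LN, 3.96, 4.06 and 4.01 in lung IL-4+, and 3.66 and 3.42 in lung IFNγ+ libraries. Lung IL-4+ cells exceeded LN cells 6.6-fold (2.72 ± 0.25, SE; limma adjusted p = 0.0022), the lowest p of the 31 regions in that comparison, and lung IFNγ+ cells exceeded LN cells 4.76-fold (limma adjusted p = 0.0031). At both regions lung IL-4+ libraries lay slightly above lung IFNγ+ libraries without overlap, by 0.43 ± 0.22 and 0.47 ± 0.25 (SE), and neither difference was called (limma adjusted p = 0.388 and 0.397).

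The Ccl1 promoter region, chr11:82179714-82180239, covers the coding start, the 5′ UTR and coding sequence. It had a log2 density of 1.76 and 2.67 in LN, 4.28, 4.29 and 3.27 in lung IL-4+, and 3.93 and 4.00 in lung IFNγ+ libraries. It was called in the lung against the LN for IL-4+ cells (3.31-fold, limma adjusted p = 0.0343) and for IFNγ+ cells (3.36-fold, limma adjusted p = 0.0378), and each call was kept under 7 of 16 alternatives. The difference between the lung populations was -0.02, with a 95% interval of -0.83 to 0.79. Its density exceeded that of 62.9% of promoter regions in lung IL-4+, 62.6% in lung IFNγ+ and 25.97% in LN cells, so it ranked above the other 4 chemokine promoters in each population. The other 13 Ccl1 regions were not called. One of them, chr11:82256419-82256819, had 2.85 and -0.01 in LN, 0.69, 1.46 and 0.97 in lung IL-4+, and -0.46 and -0.41 in lung IFNγ+ libraries, and was the single region of the 31 in which both LN libraries exceeded both lung IFNγ+ libraries.

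Across the 31 regions, 3 were called as higher in lung IFNγ+ than in lung IL-4+ cells, compared with 0.387% of all 113820 regions (limma adjusted p below 0.05 and at least 3-fold). They were the Ccl3 downstream region, the Ccl4 promoter and the farther Ccl5 upstream region. In the opposite direction 0 were called (0.108% of all regions), and all 11 regions with an unadjusted p below 0.05 were higher in lung IFNγ+ cells. The lung libraries did not overlap, with IFNγ+ higher, in 15 of the 31 regions (21.2% of all regions), which were every region of Ccl3, Ccl4, Ccl5 and Xcl1. They did not overlap in the other direction in 5 regions (19.4%), all at Ccl1. A region can be in the table through lung IFNγ+ libraries alone, so the first of these counts is not independent of how regions were chosen. By adjusted p alone the counts were also 3 (0.513% of all regions) and 0 (0.151%). The median log2 difference, lung IL-4+ minus lung IFNγ+, was -1.59 over the 15 regions outside Ccl1 and 0.17 over the 16 of Ccl1, against -0.01 over all regions.

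This count rested on few libraries. It was 0 when lung IL-4+ replicate 2 or 3 or either lung IFNγ+ library was left out, with between 6 and 10 regions at an unadjusted p below 0.05, and 5 without LN replicate 2 or lung IL-4+ replicate 1.

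Between lung IL-4+ and LN cells, 3 of the 31 regions were called as higher in the lung IL-4+ cells, compared with 1.05% of all regions, and all 3 were at Ccl1. None were called as higher in the LN (0.695% of all regions), and all 13 regions with an unadjusted p below 0.05 were higher in the lung. The IL-4+ libraries did not overlap, with the lung higher, in 15 regions (13.6%), of which 10 were at Ccl1, 4 at Ccl5 and 1 at Ccl3, and in 0 with the LN higher (14.3%). By adjusted p alone 5 regions were higher in the lung (1.88% of all regions) and 0 in the LN (1.05%), and the added 2 lay 3.675 and 26.09 kb upstream of the Ccl1 start. Median differences were 0.82 at Ccl1, 0.93 at Ccl5, 1.05 at Ccl3, 0.74 at Xcl1 and 0.28 at Ccl4, against -0.03 over all regions. With Ccl1 taken by its coding transcripts and 10 kb on each side, an alternative chosen after seeing the data, only the promoter call was left, since the upstream regions fell outside.

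Between lung IFNγ+ and LN cells, 14 of the 31 regions were called as higher in the lung, compared with 2.17% of all regions. They were 4 of 5 at Ccl3, 1 of 2 at Ccl4, 4 of 6 at Ccl5, 2 of 2 at Xcl1 and 3 of 16 at Ccl1. The opposite direction had 0 calls (0.862%), and all 21 regions with an unadjusted p below 0.05 were higher in lung IFNγ+ cells. Libraries did not overlap in 26 regions with lung IFNγ+ higher (26.5%) and in 1 with LN higher (27.2%). These counts, too, can depend on which population brought a region into the table. By adjusted p alone 15 regions were higher in lung IFNγ+ cells (3.03% of all regions) and 0 in LN cells (1.16%). The comparison shares its libraries with the comparisons above, and it differs in tissue, reporter strain and cytokine at once. Without lung IFNγ+ replicate 1 the count was 0, and without replicate 2 it was 1, with 18 and 17 regions at an unadjusted p below 0.05. It was 8 without lung IL-4+ replicate 2.

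**Figure D4:**
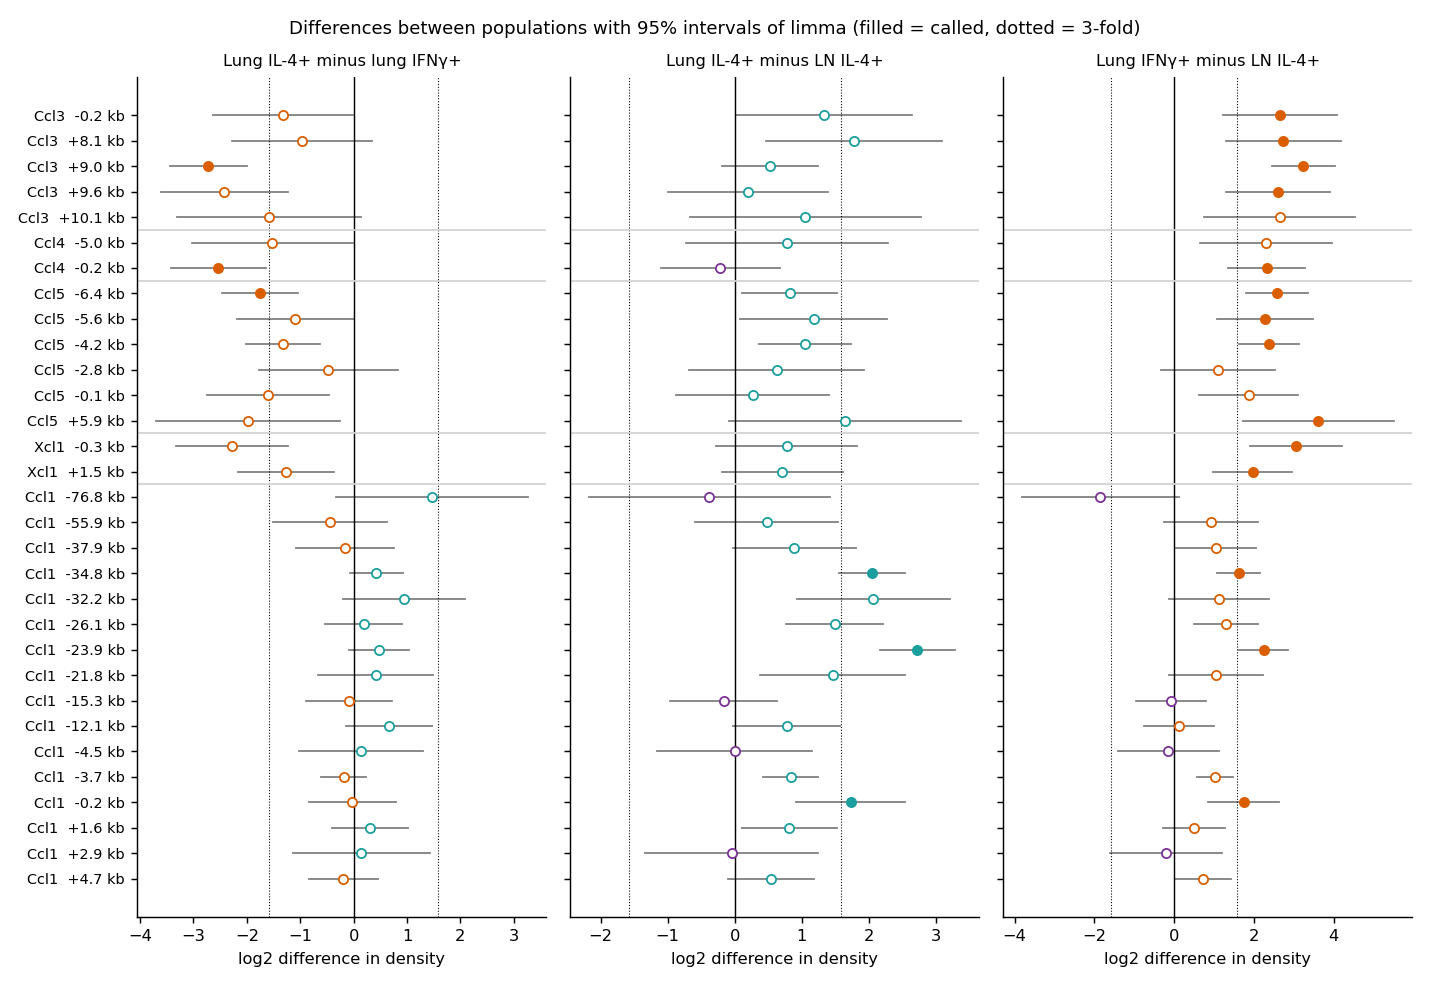
Log2 difference in density of each of the 31 regions, by gene, for lung IL-4+ minus lung IFNγ+, lung IL-4+ minus LN and lung IFNγ+ minus LN cells, with filled points for regions called by limma and dotted lines at a 3-fold change. In the comparison of the lung populations the points of Ccl3, Ccl4, Ccl5 and Xcl1 all lie below 0, while those of Ccl1 lie on both sides.

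Receptor genes of these chemokines were read in the same way. Of the 21 regions at Ccr1, Ccr3, Ccr8 and Xcr1, 2 passed the threshold with lung IL-4+ above LN cells, 1 at Ccr1 and 1 at Ccr3 (1.05% of all regions). Lung IFNγ+ cells exceeded LN cells in 5, with 2 at Xcr1 and 1 each at Ccr1, Ccr3 and Ccr8 (2.17% of all regions). Between the lung populations limma called 0 (0.387% of all regions with lung IFNγ+ higher and 0.108% with lung IL-4+ higher), with 3 regions at an unadjusted p below 0.05. The mean locus sums in LN, lung IL-4+ and lung IFNγ+ cells were 4.46, 10.6 and 11.2 at Ccr1, 5.90, 13.1 and 18.2 at Ccr3, 104.1, 123 and 132 at Xcr1, and 76.2, 144 and 124.7 at Ccr8, the receptor of Ccl1. The lung libraries overlapped at Ccr8, where lung IL-4+ replicate 1 had 123.7 and the lung IFNγ+ libraries 121.1 and 128.3. The 7 chemokine genes that neighbor the members on chromosome 11 (Ccl2, Ccl6, Ccl7, Ccl8, Ccl9, Ccl11 and Ccl12), known mainly from myeloid and stromal cells, had 1 region in all, shared by Ccl7 and Ccl11, which was not called. Of 30 regions at 9 other chemokine genes (Ccl17, Ccl20, Ccl22, Ccl24, Cxcl2, Cxcl9, Cxcl10, Cxcl13 and Cxcl16), 1 was called, at Ccl24, which encodes an eosinophil attractant, as higher in lung IL-4+ cells than in the LN (1.05% of all regions).

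NK cells, CD8 T cells and myeloid cells also make Ccl3, Ccl4, Ccl5 or Xcl1, so their markers are given beside these results. Of the NK cell markers, Ncr1 had no region in any library, and the sum over the 9 regions of Klrb1c and Klra8 was 64.7 to 68.4 in LN, 69.6 to 73.3 in lung IL-4+ and 112.7 to 116 in lung IFNγ+ libraries. Klrb1c, which encodes the NK1.1 antigen that the sort left out, had nearly all of it. Of its 8 regions, 1 was called as higher in lung IFNγ+ than in lung IL-4+ cells (0.387% of all regions). The CD8 T cell markers Cd8a and Cd8b1 summed to 12.4 to 13.6, 7.09 to 10.5 and 7.24 to 9.13, so they were not higher in lung IFNγ+ cells. Of the 6 myeloid markers, Lyz2 and Adgre1 had no region, and the list summed to 179.3 to 348.9, 211.9 to 331 and 208.3 to 227.7. Itgam, which encodes CD11b, another antigen left out by the sort, had a mean locus sum of 9.62, 11.1 and 28.1. The other myeloid markers with regions had 2.59, 1.85 and 3.17 at Csf1r, 217.1, 228 and 156.2 at Cd68, and 34.8, 30.2 and 30.5 at Spi1. Cd68 made up most of the list sum. The B cell markers, of which Ms4a1 had no region, summed to 151.1 to 191.5, 135.6 to 148.4 and 126 to 134.8. Compared with LN cells, lung IFNγ+ cells had 1 region called as higher at each of Klrb1c, Itgam, Cd6 and Lck (2.17% of all regions). At Pax5, 1 region was called as lower (0.862%). The part of NK or myeloid cells in the chemokine differences was not tested.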

How the data were processed

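ATAC-seq was measured in 7 libraries of sorted CD4+ T cells. Per the labels and methods, the authors demultiplexed reads with bcl2fastq, mapped them to GRCm38/mm10 with Bowtie2 2.3.2, called summits with MACS2 2.1.1, counted insertions in merged regions and normalized them with voom of limma 3.38.3 in R 3.5.1. The deposited values are log2 densities per kilobase. Their sorted values nearly coincide between libraries once length is removed, as after quantile normalization, which the methods text does not name.

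Starting from these values, all 113820 regions were fitted in R 4.3.3 with limma 3.58.1 (1 mean per population, eBayes with a variance trend, Benjamini-Hochberg adjustment over all regions within a comparison), and a call needed an adjusted p below 0.05 and at least 3-fold. No pseudocount and no filter were used. Locus sums were compared by exact two-sided permutation tests over libraries. Python 3.11.15, numpy 2.4.6, pandas 2.3.3 and matplotlib 3.10.9 were used for the rest. The fit was tested on simulated data with known changes. At the spread of these data, only the mean size and the sign of the changes were required to be right. Recovery of most changes was required only at a spread set far below it, so the test does not vouch for the calls here.

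Genes came from GENCODE release M21. Coordinates are 1-based, with 1 added to the starts in the table. Insertions per region were rebuilt from values tied to 8 decimals within a library and are lower bounds, so depth covers counting error only. Promoter regions are those within 1 kb of a start. Values by library are given for promoter regions, called regions and the highest region of each locus. The members, gene lists and motifs were chosen with earlier results of these data known. Alternatives were other normalizations, flanks, thresholds and fits, and each library left out. Ccl1 taken by its coding transcripts was added after seeing the data. Same-numbered libraries did not deviate together, so the numbers were not taken as pairs. Same-numbered LN and lung IL-4+ libraries fell into different spread classes, however, so their deviations could not exclude a pairing. A receptor gene of the list is not reported here.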

Additional observations from a re-analysis of the deposited data

How the results depend on the processing

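The number of called regions was 3 between the lung populations, 3 between lung IL-4+ and LN cells and 14 between lung IFNγ+ and LN cells. Of 60 recomputed counts, 40 were within 1.5 times these values. A filter on regions of low density and a further quantile normalization each gave 3, 3 and 14 again. The deposited values already looked quantile-normalized, so that setting could hardly move a count. The count of 40 is therefore not a share of independent checks. The first count was 5 with 2 populations fitted at a time, 6 with the spread class as a covariate and 1 with 1 kb on each side of the genes. With array weights it was 9, of which 8 were higher in lung IFNγ+ and 1 in lung IL-4+ cells. It was between 0 and 5 with a lung IL-4+ library left out. The second was 5 by adjusted p alone and 1 with Ccl1 by its coding transcript, and between 2 and 4 with a library left out. The third was 8 with 2 populations at a time and 7 with 1 kb on each side, and between 0 and 15 with a library left out. Array weights gave both lung IFNγ+ libraries 3.17 and lung IL-4+ replicate 1 0.407. With the replicate number as a block the counts were 0, 0 and 3 (6, 12 and 20 regions at an unadjusted p below 0.05 in limma). The deviations of same-numbered libraries correlated between -0.54 and 0.06 over regions. Same-numbered LN and lung IL-4+ libraries differed in spread class, so these correlations can neither show nor exclude a pairing. The numbers are not known to pair the samples, and the lower counts under the block stand as a limit.

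Of 183 recomputed locus differences, 168 kept their sign and moved by less than the spread between libraries. Some of the 168 could not move, since leaving out a library of the population not compared leaves a locus difference as it was. The differences at Ccl4 and Ccl1 were also unchanged with 25 kb on each side. Counting shared regions for each gene changed none at Ccl4, Ccl5, Xcl1 and Ccl1. The count of 168 is therefore not a share of independent checks. With 25 kb on each side, Xcl1 moved from -1.79 to -0.778 between the lung populations, from 0.70 to 0.0689 for lung IL-4+ against LN and from 2.49 to 0.847 for lung IFNγ+ against LN, and Ccl5 from -1.42 to -0.874 between the lung populations. With 1 kb, Ccl5 moved from 0.90 to 0.264 for lung IL-4+ against LN, and by its coding transcript Ccl1 moved there from 1.30 to 0.846. The Ccl4 difference between lung IL-4+ and LN cells (log2, 0.31) turned to -0.214 with 1 kb on each side, and with a library left out it was between -0.228 (LN replicate 2) and 0.857 (LN replicate 1), with -0.0577 without the second lung IL-4+ library. The Ccl1 difference between the lung populations turned to -0.0524 by the coding transcript. Among promoters, the Ccl1 difference between the lung populations turned to 0.25 with voom on rebuilt counts, 0.32 with the replicate block, 0.43 with the spread class, 0.0747 with array weights, and with a library left out it was between -0.19 (lung IL-4+ replicate 2) and 0.32 (replicate 3), with 0.0118 without the second lung IFNγ+ library. Between lung IL-4+ and LN cells, Ccl4 turned to 0.30 with voom and was between -0.57 and 0.14 with a library left out (LN replicates 2 and 1). Ccl5 was between -0.26 and 0.60 with a library left out (lung IL-4+ replicates 1 and 3), with -0.0437 without LN replicate 1. None of these values was called, and the cause was not tested. The best kept calls were the Ccl1 regions 23.935 and 34.778 kb upstream between lung IL-4+ and LN cells (15 of 16 alternatives each) and the Ccl3 downstream region between lung IFNγ+ and LN cells (15 of 16). Both of these Ccl1 calls were lost with the replicate number as a block. The 16 alternatives are not independent, and some of them hardly change the fit. The 3 calls between the lung populations were kept under 10 or 11 of 16. The least kept were both Ccl1 promoter calls and the call at chr11:83535874-83536274 of Ccl5 (7 of 16 each), and those at chr11:83640815-83641645 of Ccl3 and chr11:83524370-83524770 of Ccl5 (8 of 16 each).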

Other observations

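Over the 7 libraries, the locus sums of Ccl3 and Ccl5 ran closely together on the log2 scale (Pearson r = 0.995), and those of Ccl4 and Xcl1 less so (r between 0.741 and 0.904 with each other and with Ccl3 and Ccl5). Ccl1 had an r between 0.282 and 0.586 with the other 4 genes. These values describe 7 libraries that share population, depth and spread class, and are given without a test.

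Among between 17005 and 17017 protein-coding genes over 1 Mb away, the locus sums most like that of Ccl3 were those of Wdyhv1 (r = 0.989), Hsd17b13 (0.988) and Snx29 (0.987). The nearest for Ccl4 were P2ry13 (0.990), Litaf (0.982) and Casq1 (0.977). For Ccl5 they were Prok1 and A630076J17Rik, which share their regions (0.995 each), and Cmklr1 (0.992), the chemerin receptor, whose mean locus sum was 9.13 in LN IL-4+, 21.7 in lung IL-4+ and 65.2 in lung IFNγ+ cells. Xcl1 was nearest to Fn1 (0.997), Cacnb4 (0.992) and Magohb (0.992), and Ccl1 to Smim3 (0.994), Tspyl3 (0.994) and Nr2e3 (0.992). The correlation takes no account of the size of a difference, and these genes were picked as the highest without a test. In the same order of populations, mean locus sums were 146.5, 156.8 and 189.1 at Wdyhv1, against 4.24, 7.71 and 29.3 at Ccl3. They were 54.8, 110.9 and 95.8 at Smim3 and 76.9, 91.7 and 88.4 at Nr2e3, against 67.2, 165.8 and 140.01 at Ccl1.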
